A study of Mus musculus with 13 samples.

Results

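Plasma cells live by making and exporting antibody, and the genes described here run that process inside the endoplasmic reticulum (ER). They are 38 genes of antibody assembly, protein entry into the ER, folding, disulfide bond formation, disposal of misfolded protein and sensing of ER stress. A gene was a member if its symbol was on this list and it had at least 10 counts in at least 2 libraries. All 38 listed genes met that rule, out of 22997 gene symbols in the count table. The rule used no difference between groups, but the list was chosen with earlier results of these data known.

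Their RNA was followed across normal mouse plasma cells and mouse models of myeloma, a cancer that arises from plasma cells. By its label, every library came from 50000 bone marrow cells sorted as CD138+ B220- CD45.2+ on the C57/BL6 background. WT was 3 libraries of wild-type mice. V was 3 libraries of mice with Vκ*MYC and IgG1-Cre, where Vκ*MYC is a MYC transgene that germinal centre B cells turn on and IgG1-Cre is Cre driven by the IgG1 locus. VQ cells also carried an Nras LSL Q61R/+ allele, which Cre turns into an active mutant, and were donor-derived cells taken from transplant recipients: 2 of line D1, 1 of line D4 and 2 of line D5. tVk12653 was 2 recipients of a single transplantable line, labelled without further genotype. The labels give no age or sex. Recipients of a line share its tumour cells, so VQ rests on 3 lines and tVk12653 on 1. VQ and tVk12653 cells had been transplanted and WT and V cells had not, so transplantation and genotype cannot be told apart in any comparison between them.

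Antibody chains enter the ER through the Sec61 channel, which the signal sequence receptor subunits Ssr1, Ssr2 and Ssr3 accompany. Inside, BiP (Hspa5) and GRP94 (Hsp90b1) hold unfolded chains, calnexin and calreticulin bind their sugars, and disulfide isomerases join their cysteines. Chains that fail to fold go back to the cytosol through the Sel1l and Syvn1 complex for degradation. The unfolded protein response adjusts this machinery through the ER membrane proteins IRE1 (Ern1) and ATF6, and plasma cells depend on its factor Xbp1.

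Some of these genes carry the best known DNA elements of that response in their promoters, and these are shown first. The ER stress response element (ERSE) was searched as CCAAT, 9 bases and CCACG on both strands, from 250 bases before to 50 after each RefSeq gene start on GRCm38.p6. It was found in 10 of the 31 members with a window (32.3%) and in 37 of all 27025 genes with one (0.137%). The 10 were Calr, Canx, Creld2, Derl3, Dnajc3, Ero1lb, Hsp90b1, Hspa5, Pdia6 and Syvn1, and Hsp90b1 held 2 sites. Sites of 6 of them, from each role that holds any, are printed 5′ to 3′ on the strand that reads CCAAT, with the matched letters in capitals and 10 flanking bases on each side.
Hspa5: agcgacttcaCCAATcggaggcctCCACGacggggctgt
Hsp90b1 (nearer site): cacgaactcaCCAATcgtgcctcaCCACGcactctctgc
Calr: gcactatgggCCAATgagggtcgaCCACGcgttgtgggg
Pdia6: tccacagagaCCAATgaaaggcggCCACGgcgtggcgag
Syvn1: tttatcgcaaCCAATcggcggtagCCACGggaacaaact
Dnajc3: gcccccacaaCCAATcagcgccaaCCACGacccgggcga
The 9 bases between the capitals differ from gene to gene. The sites of these 10 genes lay between 26 and 212 bases upstream of the gene start. The site of Hspa5, whose product BiP is the abundant HSP70 of the ER, is shown in its 250 bases upstream of the start on the plus strand.
Hspa5 promoter, chr2:34771840-34772089: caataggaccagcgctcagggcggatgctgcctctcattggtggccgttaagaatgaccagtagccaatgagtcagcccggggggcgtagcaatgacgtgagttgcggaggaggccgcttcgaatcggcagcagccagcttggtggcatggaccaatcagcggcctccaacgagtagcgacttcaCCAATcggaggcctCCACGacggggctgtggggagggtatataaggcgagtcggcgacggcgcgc
The shorter ERSE-II (ATTGG, 1 base, CCACG) was found in Dnajb11 and Herpud1, 2 of 31 members (6.45%) against 12 of all genes (0.0444%). The core of the unfolded protein response element (TGACGTGG) was found in Txndc5 alone, 1 of 31 (3.23%) against 193 of all genes (0.714%). ERSE-II and ERSE end in the same CCACG, but no matched letters were shared here.
Herpud1 (ERSE-II): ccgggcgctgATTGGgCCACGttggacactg
Txndc5 (UPRE core): gcctcgccgcTGACGTGGcgctagccgc
These are matches of letters in windows of the reference and no binding was measured. No window was held for Mzb1, Sec61a1, Ssr2, Hyou1, Manf, Derl1 and Atf6.

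Libraries held 2096815 to 8512281 counts, so the floor of 3 counts lay between 0.326 and 1.48 CPM. CPM is a gene's counts as parts of 1000000 counts of the library, here scaled by trimmed means of M values (TMM). The 8 plasma cell markers had counts in every group. Xbp1 ranged from 1330 to 3390 CPM over the 13 libraries and Sdc1, which encodes the sorted CD138, from 365.4 to 1427. Other markers did not share a direction. Slamf7 was below WT in every tumour library. Tnfrsf17 (BCMA) ran from 82.94 to 149.3 CPM across WT. Its tumour values spanned 2.824 (D1 replicate 2) to 83.58 (D5 replicate 2), and only that D5 library reached the WT range. Irf4 was below WT in no tumour library, and every D1 and D4 library (2264 to 2417 CPM) exceeded the WT maximum of 1782. Prdm1 fell below its WT range of 383 to 677.1 CPM in D5, but tVk12653 did not (502.5 and 704.9). The 8 summed to 38600 to 71900 CPM in WT, 42600 to 63700 in V and 5600 to 12400 in the tumours, with Jchain and Mzb1, which are also members, among them. Most of the WT and V sums was Jchain, which alone had 33540 to 64460 CPM in WT and 34860 to 55190 in V. In the tumours Jchain had 44.53 to 6740 CPM. Ptprc, the gene of the sorted CD45.2, went against the labels in D4 and D5. It had 543.3 to 793.6 CPM in WT, 506.6 to 585.9 in V, 248.3 and 272.4 in D1 and 182.6 and 196.5 in tVk12653, but 1.686 in D4 and 1.855 and 6.645 in D5. Comparisons of VQ are therefore also given without D4 and D5, and D1 against D5 has no value without them. RNA of other cells was uneven. The 18 measured neutrophil markers summed to 3660 to 10200 CPM in WT (highest in replicate 2) and 2020 to 4000 in V. They summed to 423 to 1370 in D1, 98 in D4, 96.7 to 157 in D5 and 109 to 178 in tVk12653. Fcnb was at 0 in D4 and Csf3r in tVk12653, and no other of the 18 was at 0 throughout a group. The 11 erythroid markers ran from 177 to 1080 CPM across WT, 20.2 to 60.7 in V and 5.88 to 25 in the tumours. WT replicate 2, with the most neutrophil RNA, was the lowest of the 3 WT libraries for all 38 members, and results that rest on it are given with and without it.

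The 38 genes took 8.77 ± 1.85% of all counts in WT (SD, n = 3) and 9.35 ± 0.84% in V (n = 3). Their share was 4.97% in D1 (mean of 2), 4.40% in D4 (1 library), 5.96% in D5 (mean of 2) and 4.75% in tVk12653 (mean of 2). Every tumour library lay below every WT and V library. In bulk RNA, fewer cells that express a gene and less of its RNA per cell cannot be told apart, here or in any later value. Jchain carried that gap: it held 4.44 ± 1.55% of counts in WT, 4.18 ± 0.95% in V, 0.532% in tVk12653, 0.0888% in D1, 0.112% in D5 and 0.00428% in D4. Without Jchain, the WT share of the other 37 genes was 4.33 ± 0.51% and the V share 5.17 ± 0.13%, beside 4.89% (D1), 4.40% (D4), 5.85% (D5) and 4.22% (tVk12653). Counting error was small beside these values, since the widest exact (Clopper-Pearson) 95% binomial interval of a library's share reached 0.0379 percentage points to either side. These intervals cover counting error only.

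**Figure D1:**
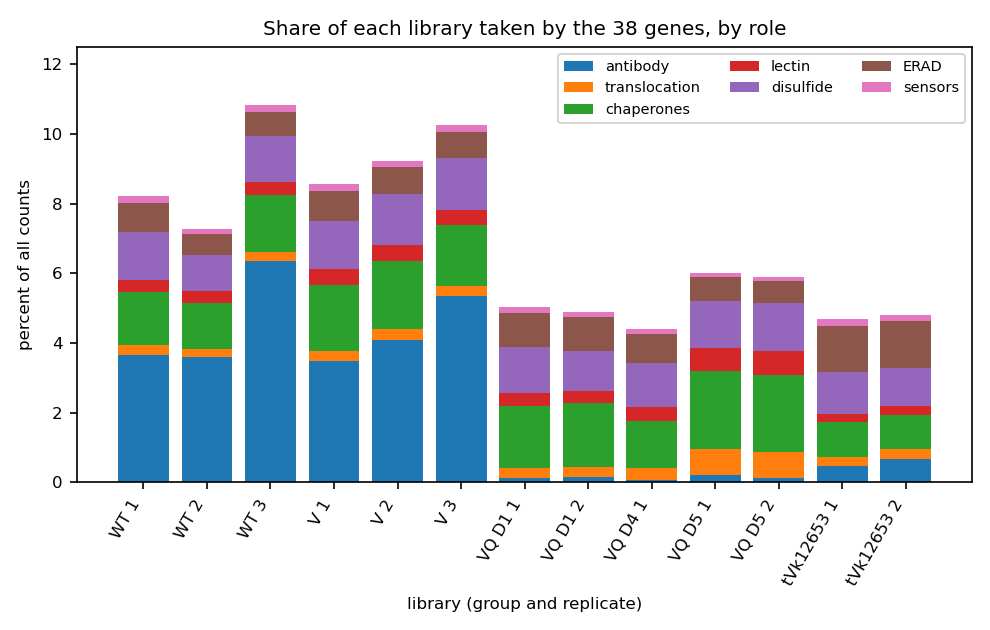
Stacked bars give the percent of all counts in each of the 13 libraries that the 38 genes took, coloured by role. The antibody block, nearly all Jchain in WT and V, shrinks from 4.54% in WT to 0.0580% in D4, and no other block falls as far. The translocation block rises from 0.2565% in WT to 0.7212% in D5. In tVk12653 the degradation block rises from 0.7075% in WT to 1.342%, and the chaperone block falls from 1.484% to 0.9864%.

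Per kilobase of exon, the order of the members also changed. In WT the highest was Jchain at 17890 CPM per kb, then Hsp90b1 at 1920, Pdia4 at 1672, Txndc5 at 1277 and Calr at 978.1. Hsp90b1 was first in D1 (2133) and D5 (3163), and Pdia4 (1618) was first in D4. In tVk12653 Jchain was still first (2132 CPM per kb), followed by Pdia4 (1851) and Sel1l (1178). Jchain was 12th in D1, 13th in D5 and 36th in D4. Ranks of the same gene can be compared across groups here because its length does not change.

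Seen gene by gene, the module did not move as a block. Group means of 7 members differed by less than 2-fold between the highest and the lowest group. For 27 members they differed by 2- to 5-fold, and for Jchain, Mzb1, Ssr2 and Pdia5 by more or from 0. D5 had the highest mean for 18 members and the lowest for 11, more than any other group in both directions. V had the highest mean for 12 members and the lowest for none. The shares of all genes at these extremes were not counted, so these counts have no background beside them.

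**Figure D2:**
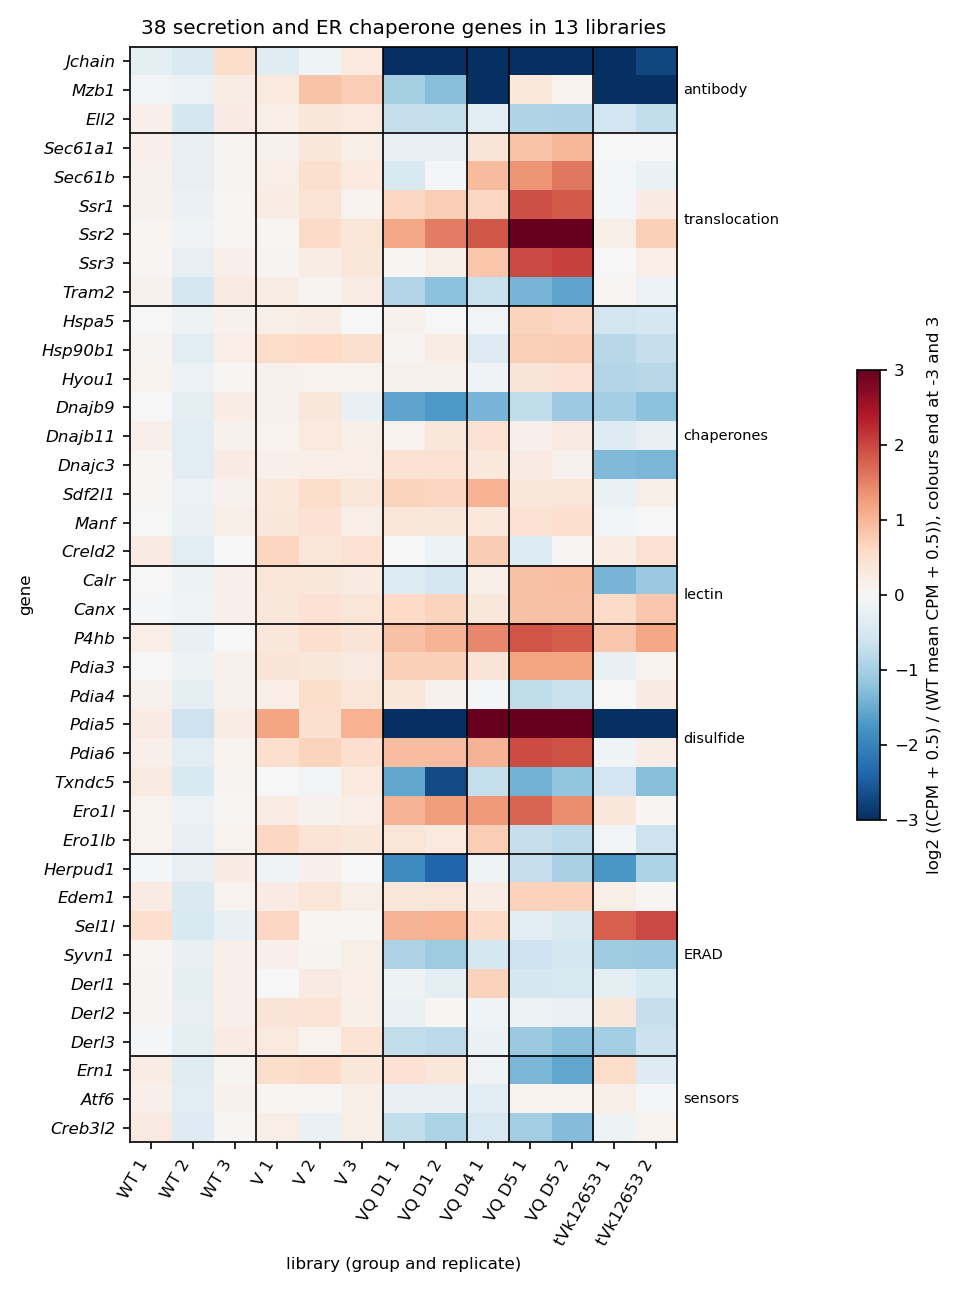
Colours give log2 of CPM plus 0.5 in each library over the WT mean plus 0.5, for 38 genes in rows by role and 13 libraries in columns, with colours ending at -3 and 3. Jchain is dark blue in all 5 VQ libraries, Ssr2 and Pdia5 are dark red in D5, and Pdia5 is dark blue in D1 and tVk12653.

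Comparing V with WT asks how plasma cells with the MYC transgene and IgG1-Cre differ in mice that were not transplanted. No member passed an adjusted p of 0.05 in the edgeR quasi-likelihood test of the 6 libraries. The background was low as well, with 0.00951% of 10510 genes higher and 0.00951% lower (1 gene each, Myc and Uty, named after their values were seen). Reads of the human transgene in the Myc row cannot be told apart from mouse Myc. The labels do not give the sex of the V and WT mice, and its part in this comparison was not tested. At an unadjusted p under 0.05 there were 15 of 38 members and 12.7% of all genes. Of the 38 members, 37 had a positive difference, against 51.3% of all genes, and their median difference was 0.276 log2 against 0.00878. All 3 V libraries lay above all 3 WT libraries for 18 members, and below for none. Of 12835 genes, 8.5% lay above and 9.54% below. The largest differences that did not pass were Pdia5 (0.97 ± 0.37 log2, SE, adjusted p = 0.317), Mzb1 (0.65 ± 0.16, adjusted p = 0.182), Pdia6 (0.56 ± 0.15, adjusted p = 0.199) and Hsp90b1 (0.54 ± 0.17, adjusted p = 0.246).

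Same-numbered WT and V libraries moved together around their group means, so a block for the number was also fitted. With it, 4 members were called higher and none lower, against a background of 1.31% of genes higher and 3.24% lower. They were Mzb1 (0.64 ± 0.14, adjusted p = 0.0212), Creld2 (0.52 ± 0.12, adjusted p = 0.0348), Pdia6 (0.57 ± 0.14, adjusted p = 0.0425) and Ero1lb (0.47 ± 0.12, adjusted p = 0.0468). Without the pair of replicates 2 the blocked fit called 0, and so did the blocked fit of all 13 libraries. DESeq2 without the block called Mzb1, Hsp90b1 and Pdia6. Leaving out WT replicate 2, the WT library with the most neutrophil RNA, brought the members' median to 0.141 from 0.276. Neutrophil RNA was lower in V than in most WT libraries, and its part in the difference was not tested.

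Comparing the VQ lines with WT asks how plasma cells of tumours with active Nras differ in the same genes. In the fit of 11 units (3 WT, 3 V and 2 tVk12653 libraries and 3 summed VQ lines), 10 members were higher and 6 lower, where 17.3% of 11933 genes were higher and 15.1% lower. The higher members were Ssr1, Ssr2 and Ssr3 of translocation, the small ER proteins Sdf2l1 and Manf, calnexin (Canx), and P4hb, Pdia3, Pdia6 and Ero1l of disulfide formation. The lower ones were Jchain, Tram2, Dnajb9, Txndc5, Syvn1 and Creb3l2. The members' median was 0.307 log2 against 0.0837 for all genes. Without WT replicate 2 the higher calls fell to 4, since Ssr1, Ssr3, Sdf2l1, Manf, Canx and Pdia3 no longer passed. Of the lower members, Txndc5 and Creb3l2 did not pass without WT replicate 1, nor these and Syvn1 without WT replicate 3. A fit of the 2 arms alone lost Tram2, Txndc5, Syvn1 and Creb3l2. It also lost Ssr1, Ssr3, Sdf2l1, Manf, Canx and Pdia3 of the higher members. Ssr3, Manf and Canx did not pass without WT replicate 1 either, nor Ssr1, Ssr3 and Manf without WT replicate 3. Line D1 without D4 and D5 is a single unit, and the members' median was then 0.163 log2 against 0.0158 for all genes. Both D1 libraries lay above every WT library for 16 members and below for 12. Of 12835 genes, 33% lay above and 35.9% below. P4hb, Pdia6, Ero1l and Ssr2 stayed higher and Jchain and Dnajb9 lower in each alternative that tested them.

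Against V, which shares the VQ libraries with that comparison, 5 members were higher and 8 lower, where 15.6% of genes were higher and 12.4% lower. Higher were Pdia6, Ssr1, P4hb, Ero1l and Ssr2. Lower were Jchain, Dnajb9, Txndc5, Tram2, Derl3, Ell2, Creb3l2 and Syvn1. The members' median difference was 0.0632 log2, close to the 0.0762 of all genes. Pdia6 and Ssr1 did not pass with any single V library left out. Without V replicate 1 or 3 Txndc5, Derl3 and Creb3l2 did not pass either, nor Ell2 without replicate 3, which left 4 lower. Without D4 and D5, which left a single VQ unit, the members' median was -0.184 log2 against 0.0146 for all genes.

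Comparing tVk12653 with WT, 3 members were higher and 7 lower, where 12.6% of genes were higher and 15.7% lower. The 2 tVk12653 recipients of 1 line entered the fit as 2 units. Its p-values, here and in VQ against tVk12653, therefore hold for that line only. Sel1l, P4hb and Canx were higher, and Mzb1, Dnajc3, Calr, Dnajb9, Syvn1, Hyou1 and Derl3 were lower. The median of the members was -0.0742 log2, against -0.0454 for all genes. With either tVk12653 recipient left out, 2 members remained called lower, and with replicate 2 left out none was called higher. Without WT replicate 2, Canx, P4hb, Mzb1 and Derl3 did not pass and only Sel1l was called higher. Dnajc3 and Syvn1 were called in all alternatives run.

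**Figure D3:**
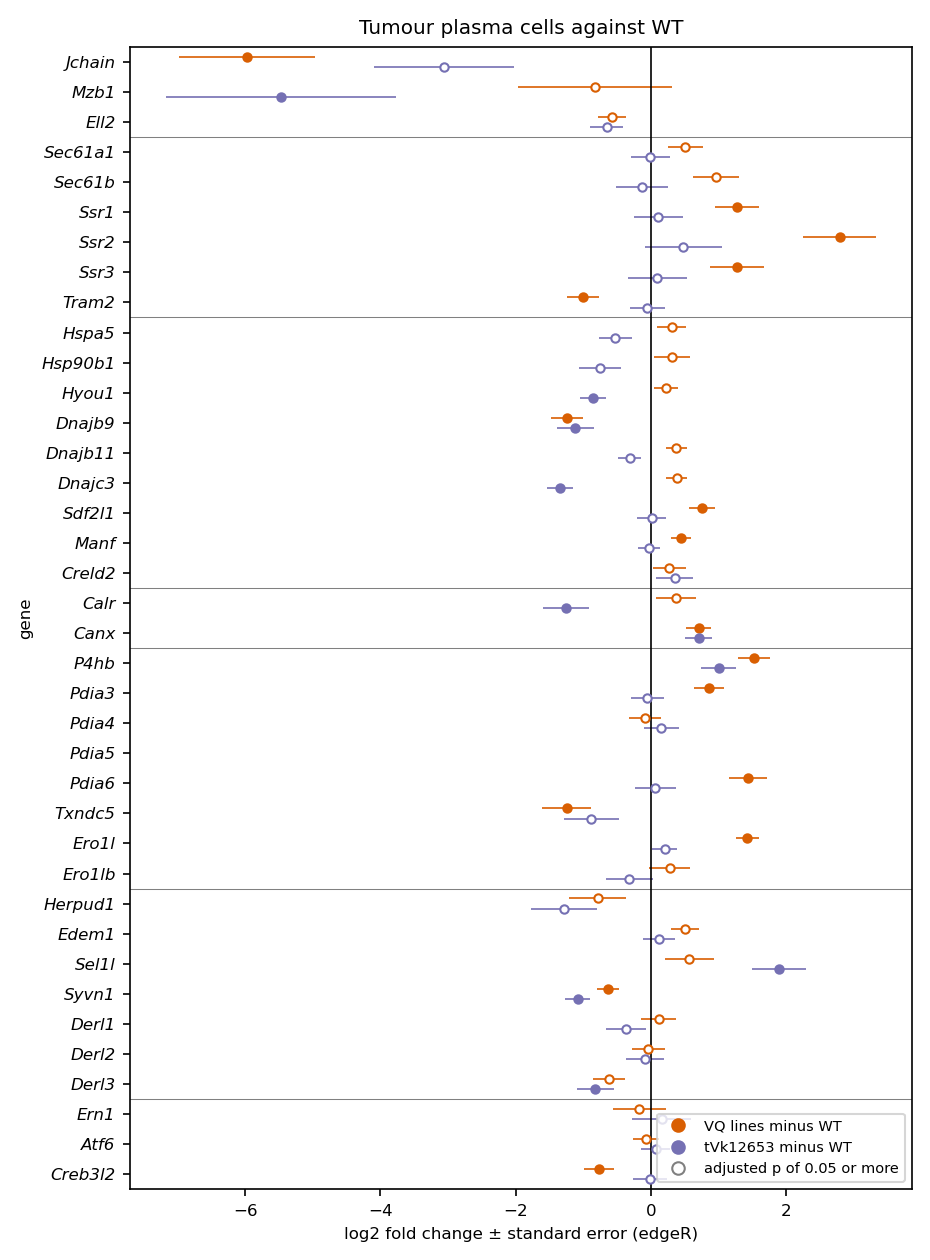
Points give the edgeR log2 fold change of the VQ lines (orange) and of tVk12653 (purple) against WT, with standard errors as bars, for 37 members by role. Filled points passed an adjusted p of 0.05. Pdia5 is left out because D1 had no count and tVk12653 had 1. P4hb and Canx lie right of 0 for both tumours, while Calr and Dnajc3 lie left of 0 for tVk12653 alone.

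The direct comparison of the VQ lines with tVk12653 had 8 members higher in VQ and 1 lower, where 5.97% of genes were higher and 4.19% lower. Higher in VQ were Dnajb11, Dnajc3 and Hyou1, Calr, Pdia3, Pdia6, Ero1l and Ssr2, and Tram2 was lower. The members' median was 0.511 log2 against 0.179 for all genes. These calls rest on the shared spread of 11 units, and a fit of the 5 units alone called 0. With tVk12653 replicate 1 or 2 left out, 2 and 1 members were higher. Without D4 and D5, which left a single VQ unit, the members' median was 0.139 log2 against 0.115 for all genes.

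D1 and D5 are both VQ lines, and comparing them shows how far lines of a single genotype can differ. In the fit of 13 libraries, 4 members were higher and 17 lower in D1, where 20% of 12835 genes were higher and 21.7% lower. Ern1, Sel1l, Ero1lb and Pdia4 were higher in D1. Lower were all 5 Sec61 and signal sequence receptor genes, Hspa5, Hsp90b1, Dnajb9, Calr, P4hb, Pdia3, Pdia5, Pdia6, Ero1l, Herpud1, Syvn1 and Mzb1. The members' median was -0.378 log2 in D1 minus D5, against 0.0527 for all genes. The spread in this test is shared over all 13 libraries, mice of a genotype included, and D1 and D5 have 2 recipients each. With single D1 or D5 libraries left out 12 to 14 members were lower. Pdia3 and Syvn1 did not pass in any of these fits, and Hsp90b1, Ero1l, Dnajb9 and Hspa5 did not in some of them.

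**Figure D4:**
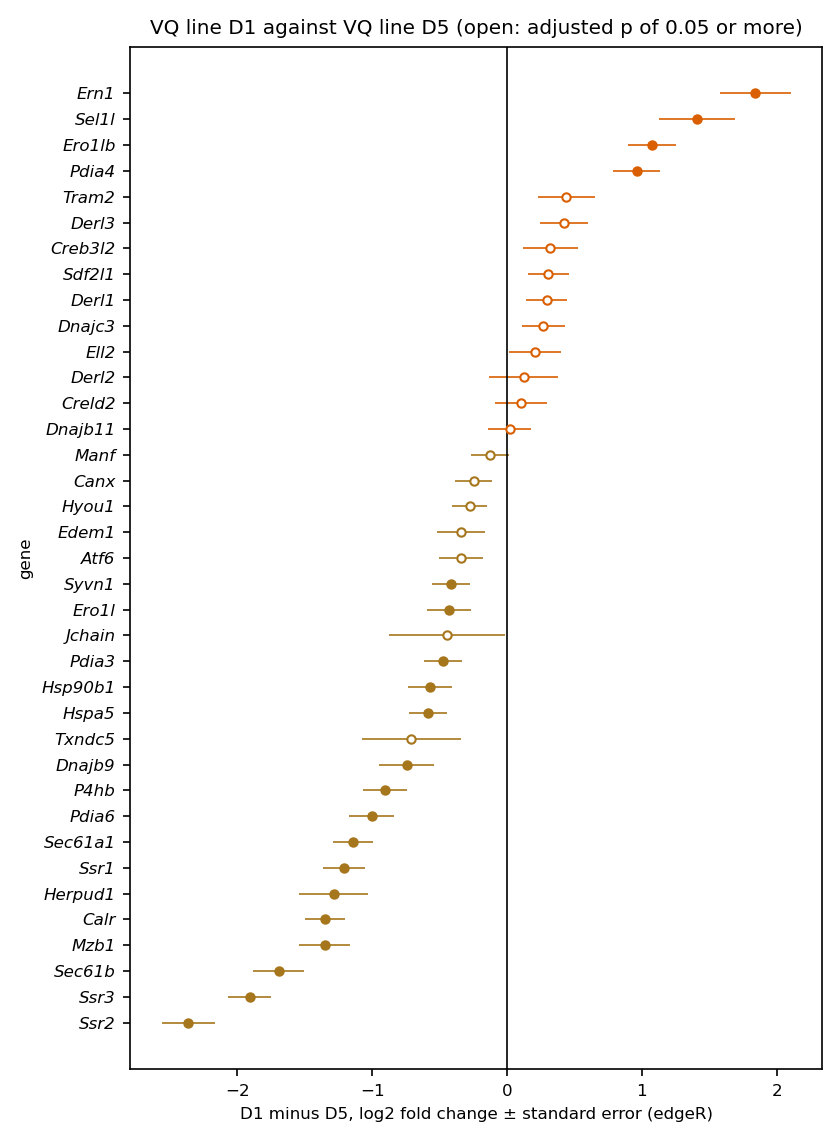
Points give the D1 minus D5 log2 fold change with its standard error, for 37 members sorted by value, and filled points passed an adjusted p of 0.05. Ern1 is at the top (1.84) and Ssr2 at the bottom (-2.36). Pdia5, with no counts in D1, is left out.

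Jchain, the joining chain that links IgM and IgA into polymers, had the widest range of all members. It stood at 37050, 33540 and 64460 CPM in WT and at 34860, 41170 and 55190 in V. The D1 recipients had 695.7 and 940.6, D4 had 44.53, the D5 recipients 1509 and 723.8, and the tVk12653 recipients 3995 and 6740. No tumour library reached any WT or V library, and every VQ library lay below both tVk12653 libraries. The VQ lines were lower than WT by -5.98 ± 1.01 log2 (adjusted p = 0.00244) and lower than V by -5.95 ± 1.00 (adjusted p = 0.00316). The tVk12653 difference from WT was -3.07 ± 1.03 and missed the threshold (adjusted p = 0.0508), and 5 alternatives of the test passed it.

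Mzb1, an ER protein that helps assemble IgM and is made by marginal zone B cells and plasma cells, split the tumours differently. WT libraries had 293.3, 274.6 and 363 CPM, V libraries 380.7, 564.9 and 514, and D5 recipients 384 and 333.5. The D1 recipients had 154.8 and 127.2, the tVk12653 recipients 6.703 and 7.244, and D4 had 0.5618, which was 4 counts. D5 overlapped WT, D1 lay below it, tVk12653 (29 and 20 counts) lay far below it, and D4 was near the floor. The tVk12653 libraries were lower than WT by -5.48 ± 1.70 log2 (adjusted p = 0.0378), a call that 7 of 14 alternatives lost. D1 was lower than D5 by -1.35 ± 0.19 (adjusted p = 5.83e-05). The VQ lines as a group did not pass against WT (-0.83 ± 1.14, adjusted p = 0.605). In the GENCODE M21 annotation 57.2% of the exon bases of Mzb1 are shared with a same-strand gene model, SPATA24, so its counts could include or lose reads of that model.

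Ell2, an elongation factor that favours the secreted form of antibody heavy chain mRNA, moved within a narrow range. WT had 775.3, 484 and 830.4 CPM, V 796.9, 883 and 846.7, D1 433.6 and 421.6, D4 558.5, D5 372.6 and 368, and tVk12653 464.6 and 418.4. Ell2 was lower in VQ than in V (-0.86 ± 0.21 log2, adjusted p = 0.0157). Against WT, where replicate 2 was lower than D4, they did not pass (-0.58 ± 0.21, adjusted p = 0.0605), and without that replicate they did.

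**Figure D5:**
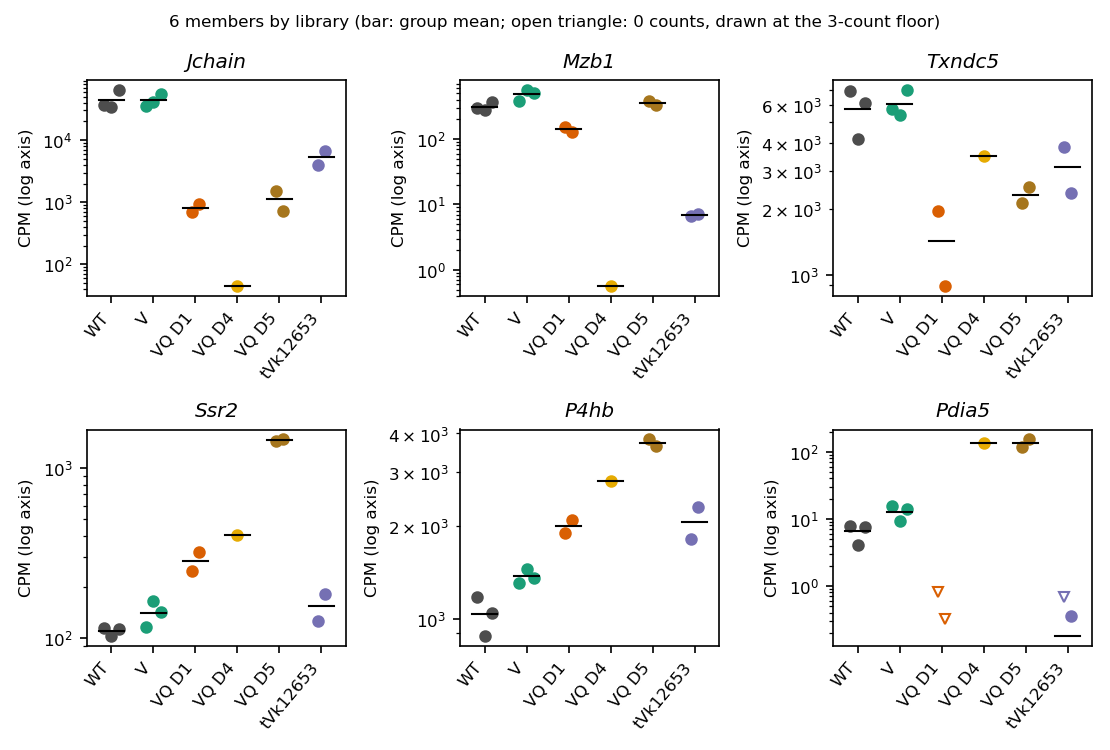
Points give CPM on a log axis for 6 members in each library of the 6 groups, with bars at group means and open triangles for libraries with 0 counts, drawn at the floor of 3 counts. Jchain, Mzb1 and Txndc5 are lower in several tumours, Ssr2 and P4hb are higher in every VQ library than in WT, and Pdia5 has no counts in D1 and more than 100 CPM in D4 and D5.

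Among the translocation genes, Ssr2, a subunit of the receptor beside the Sec61 channel, differed most. It had 114.1, 102.8 and 113.4 CPM in WT mice, 115.4, 164.7 and 141.2 in V, and 125.3 and 181.8 in tVk12653. D1 had 247.3 and 318.8, D4 403.7 and D5 1437 and 1480. All 5 VQ libraries were above all other libraries. Ssr2 was higher in the VQ lines than in WT by 2.79 ± 0.54 log2 (adjusted p = 0.00472), and without line D5 it was still called at 1.68. D1 was lower than D5 by -2.36 ± 0.20 (adjusted p = 5.78e-07). Exons of an opposite-strand gene, Gm10704, cover 12.8% of those of Ssr2, and whether the counting used strand is not stated in the sources used here.

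The partner subunits Ssr1 and Ssr3 had their highest values in D5 too. Ssr1 was 420.2 to 528.1 CPM across WT, 526.4 to 649.6 in V, 751.2 and 809.5 in D1, 748.5 in the D4 library, 1868 and 1743 in D5, and 472.2 and 574.5 in tVk12653. The VQ lines were higher than WT by 1.27 ± 0.33 log2 (adjusted p = 0.0160). Ssr3 was 492.8 to 653.6 CPM in WT mice and 2315 and 2414 in D5, with 1034 in the D4 library and 601.5 and 657.3 in D1. D1 therefore overlapped WT for Ssr3, and the VQ call (1.27 ± 0.40, adjusted p = 0.0349) was lost without line D5, at 0.52.

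The channel subunits Sec61a1 and Sec61b did not pass in VQ against WT (adjusted p = 0.160 and 0.0552). Sec61b had 44.23 to 58.1 CPM across WT, 37.95 and 50.84 in D1, 102.3 in the D4 library and 132 and 158.2 in D5. Both D5 recipients and D4 were above WT and V for Sec61a1 as well, at 1127, 1227 and 814.3 CPM against 519 to 778.7. D1 was lower than D5 by -1.14 ± 0.15 log2 for Sec61a1 and -1.69 ± 0.19 for Sec61b (adjusted p = 2.9e-05 and 6.59e-06).

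Tram2, a translocation-associated membrane protein, went the other way. It had 811.2, 526 and 887.3 CPM in WT mice, 869.4, 783.7 and 868.7 in V, 777.3 and 651.6 in tVk12653, and 248.4 to 468.3 in the 5 VQ libraries. Every VQ library was below every library of the other groups. The VQ lines were lower than WT (-1.01 ± 0.23 log2, adjusted p = 0.0099), V (-1.20 ± 0.24, adjusted p = 0.00597) and tVk12653 (-0.95 ± 0.26, adjusted p = 0.0439).

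The abundant chaperones changed little in VQ as a group and stood lowest in tVk12653. Hspa5 (BiP) was 2994, 2726 and 3306 CPM across WT, 3412, 3503 and 2997 in V mice, 3300 and 3010 in D1, 2861 in the D4 library, 4811 and 4664 in D5, and 2045 and 2120 in tVk12653. D5 lay above all other groups and tVk12653 below them. Neither tumour passed against WT (VQ 0.31 ± 0.21 log2, adjusted p = 0.297, and tVk12653 -0.53 ± 0.24, adjusted p = 0.13). D1 was lower than D5 by -0.59 ± 0.14 (adjusted p = 0.00404), and without D1 replicate 2 this did not pass (adjusted p = 0.0587). Hsp90b1 (GRP94) had the same order at its ends: 12690 and 12820 CPM in D5 and 4359 and 4798 in tVk12653, with WT at 6233 to 8839 and V at 10750 to 11750. D4 had 5922, below the lowest WT library.

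Hyou1, an HSP70 relative that exchanges BiP's nucleotide, had 1088, 893.2 and 1052 CPM in WT mice and 549 and 565.8 in tVk12653, lower by -0.86 ± 0.20 log2 (adjusted p = 0.0111). Its VQ libraries lay between 939.3 and 1355. Dnajc3, a J-domain cochaperone also known as p58IPK, had 877.8, 677.1 and 1006 CPM across WT and 927.5 to 1169 in VQ. In tVk12653 it had 339.1 and 331.8, the lowest values of any library. It was lower there than in WT by -1.35 ± 0.19 log2 (adjusted p = 0.00135) and lower than in VQ, where the difference was 1.72 ± 0.19 (VQ minus tVk12653, adjusted p = 0.00112). Dnajc3 was the member whose call in that direct comparison was lost only by the fit of those 5 units alone.

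Dnajb9 (ERdj4), a J-domain cochaperone that acts on IRE1 and on misfolded protein, was low in every tumour. WT had 292.9, 236.3 and 340.6 CPM, V 316.6, 365.7 and 249.2, D1 96.35 and 86.9, D4 110.5, D5 171.2 and 135.5, and tVk12653 142.8 and 124.2. No tumour library overlapped WT or V. The difference from WT was -1.24 ± 0.24 log2 for VQ (adjusted p = 0.00441) and -1.12 ± 0.28 for tVk12653 (adjusted p = 0.0156).

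Dnajb11 (ERdj3), a cochaperone of BiP, had 431.6 to 594.7 CPM in WT mice, 580.3 to 733.9 in VQ and 410.7 and 449.5 in tVk12653. It passed only in VQ against tVk12653 (0.69 ± 0.18 log2, adjusted p = 0.0373) of the 6 comparisons. Sdf2l1, a partner of BiP and ERdj3, had 257.4, 220.8 and 275.2 CPM across WT, 397.2 and 391.8 in D1, 514.9 in the D4 library, and 315.9 and 322.3 in D5. The VQ lines were higher than WT by 0.75 ± 0.19 log2 (adjusted p = 0.0136). Manf, a small secreted ER stress protein, had 534.9 to 692.5 CPM in WT mice and 769.2 to 880.8 in VQ, a difference of 0.44 ± 0.15 log2 (adjusted p = 0.0455) that 12 of 16 alternatives lost. Creld2, a stress-induced ER protein, was highest in D4 (1165 CPM) and V (884.4 to 1080) and did not pass in either tumour against WT.

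The lectin chaperones differed between the tumours. Calreticulin (Calr) had 2798, 2533 and 3120 CPM across WT, 3631, 3576 and 3416 in V mice, 2109 and 2001 in D1, 3199 in the D4 library, 5203 and 5281 in D5, and 1063 and 1295 in tVk12653. D5 was above and D1 and tVk12653 below all WT libraries. tVk12653 was lower than WT by -1.26 ± 0.35 log2 (adjusted p = 0.0239) and lower than VQ, where VQ minus tVk12653 was 1.63 ± 0.35 (adjusted p = 0.0202). Calnexin (Canx), its membrane-bound relative, had 800.3, 768.9 and 922.2 CPM in WT and more in every other library, from 1045 in V to 1533 in D5. It was higher by 0.70 ± 0.18 log2 in VQ (adjusted p = 0.0151) and by 0.70 ± 0.20 in tVk12653 (adjusted p = 0.0261). Both of these calls were lost without WT replicate 2 and without WT replicate 1.

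P4hb, the founding protein disulfide isomerase (PDI), was higher in every tumour. It had 1175, 878.8 and 1040 CPM in WT mice, 1305, 1453 and 1355 in V, 1899 and 2088 in D1, 2798 in the D4 library, 3829 and 3629 in D5, and 1810 and 2308 in tVk12653. The groups WT, V and the tumours did not overlap. The difference from WT was 1.53 ± 0.24 log2 for VQ (adjusted p = 0.00149) and 1.00 ± 0.25 for tVk12653 (adjusted p = 0.0177). The tVk12653 call was lost without WT replicate 2 and without tVk12653 replicate 2 (adjusted p up to 0.136).

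Pdia6 and Ero1l were higher in VQ too and did not pass in tVk12653. Pdia6, a PDI relative that acts with BiP, had 791.5, 573.6 and 764.7 CPM across WT, 1347 and 1354 in D1, 1449 in the D4 library, 2747 and 2672 in D5, and 653.9 and 829.1 in tVk12653. Its VQ difference from WT was 1.44 ± 0.28 log2 (adjusted p = 0.00454). Ero1l, the oxidase that recharges PDI, had 55.98, 46.08 and 53.16 CPM in WT mice, 106 and 124.3 in D1, 125.7 in the D4 library, 175.4 and 136 in D5, and 65.18 and 53.61 in tVk12653. It was higher in VQ than in WT by 1.42 ± 0.17 log2 (adjusted p = 0.000504) and higher than in tVk12653 by 1.22 ± 0.20 (adjusted p = 0.00687). Pdia3 (ERp57), which works with the lectin chaperones, had 810.6 to 985.9 CPM across WT, 1171 in the D4 library, and 1461 to 2042 in D1 and D5. The VQ difference was 0.86 ± 0.22 (adjusted p = 0.0149).

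Txndc5, a PDI relative abundant in plasma cells, fell where these rose. It had 6927, 4179 and 6104 CPM in WT mice, 5772, 5410 and 7040 in V, 1960 and 887.3 in D1, 3493 in the D4 library, 2139 and 2514 in D5, and 3846 and 2367 in tVk12653. Every tumour library was below every WT and V library. Txndc5 was lower in VQ than in WT (-1.25 ± 0.36 log2, adjusted p = 0.0247) and V (-1.34 ± 0.36, adjusted p = 0.022), and tVk12653 did not pass (-0.89 ± 0.41, adjusted p = 0.132). The VQ call against WT was lost without WT replicate 1 and without WT replicate 3.

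Pdia5, a PDI relative with little RNA in normal plasma cells, was counted in some lines and not in others. It had 7.746, 4.055 and 7.676 CPM across WT and 15.29, 9.249 and 13.95 in V. D4 had 133 and the D5 recipients 116.6 and 153.1. Neither D1 recipient had a count, and the tVk12653 recipients had 0 and 1. Against the floor of 3 counts in the shallower D1 library, D5 was at least 167-fold higher, D4 at least 165-fold, V at least 15.9-fold and WT at least 8.04-fold. D1 against D5 passed (adjusted p = 1.57e-08). The 3 VQ lines together did not pass against WT (adjusted p = 0.0726), and they did without line D1. Both D1 libraries lay below every WT library.

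Pdia4 (ERp72) and Ero1lb, the second oxidase, were below WT in D5, as was Txndc5, while the other disulfide genes were above it. Pdia4 had 4377, 3275 and 4384 CPM in WT mice, 5070 and 4419 in D1, 3882 in the D4 library and 2347 and 2526 in D5. Ero1lb had 151.4, 120.2 and 153.2 CPM across WT, 183.6 and 174.6 in D1, 237.8 in the D4 library and 86.91 and 82.55 in D5. For both, D1 lay above and D5 below every WT library. D1 was higher than D5 by 0.96 ± 0.18 log2 for Pdia4 (adjusted p = 0.000523) and 1.08 ± 0.18 for Ero1lb (adjusted p = 0.000231).

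In ER-associated degradation, Sel1l, the adaptor of the retrotranslocation complex, was highest in tVk12653. It had 3842, 1962 and 2324 CPM in WT mice, 4174, 2809 and 2760 in V, 5532 and 5548 in D1, 4011 in the D4 library, 2163 and 2010 in D5, and 9379 and 10780 in tVk12653. Both tVk12653 libraries were above all others. The difference from WT was 1.90 ± 0.40 log2 (adjusted p = 0.00823), and without tVk12653 replicate 2 it did not pass (adjusted p = 0.0582). Syvn1 (HRD1), the ubiquitin ligase that Sel1l binds, was low in the same libraries, at 246.6 and 242.7 CPM against 541.5, 443.8 and 573.4 in WT. Its VQ libraries had 248.8 to 358.5 and its V libraries 546.1 to 584.5, so no tumour library overlapped WT or V. It was lower by -1.09 ± 0.19 log2 in tVk12653 (adjusted p = 0.00345) and -0.64 ± 0.16 in VQ (adjusted p = 0.0149). The partners in this complex had opposite signs in tVk12653.

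Herpud1, which helps gather that complex, had 1331, 1160 and 1628 CPM across WT, 1282 to 1527 in V and 1253 in the D4 library. It was lower in D1 (373.3 and 262), D5 (846.1 and 698.8) and tVk12653 (406.8 and 715). Because D4 stayed within the WT range, the VQ lines did not pass against WT (-0.79 ± 0.42 log2, adjusted p = 0.175). D1 was lower than D5 by -1.28 ± 0.26 (adjusted p = 0.00145). Derl3, a derlin of the ER membrane that secretory cells express, had 303.7 to 433.3 CPM in WT mice, 392 to 488.4 in V, 151.8 to 315.6 in VQ and 179.6 and 232.2 in tVk12653. It was lower in VQ than in V (-0.92 ± 0.24, adjusted p = 0.0188) and in tVk12653 than in WT (-0.83 ± 0.27, adjusted p = 0.0452), and 9 of 14 alternatives lost the second call. Derl1, Derl2 and Edem1, a lectin that marks glycoproteins for disposal, passed in none of the 6 comparisons.

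Of the sensors, Ern1 (IRE1), whose endonuclease splices Xbp1 mRNA, was lowest in D5. It had 540.5, 364.9 and 493.8 CPM across WT, 676.1, 689.8 and 594.8 in V mice, 627.4 and 588.9 in D1, 433.2 in the D4 library, 180.7 and 158.7 in D5, and 684.6 and 356.1 in tVk12653. Both D5 libraries were below every other library. D1 was higher than D5 by 1.84 ± 0.26 log2 (adjusted p = 0.000117). Creb3l2, an ER membrane transcription factor of the ATF6 kind, had 877.1, 552.2 and 750 CPM in WT mice and 294.9 to 520.6 in VQ, lower by -0.77 ± 0.22 (adjusted p = 0.0241), with tVk12653 at 656 and 778.8. Atf6 lay between 449 and 647.9 CPM in all 13 libraries and passed in no comparison.

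The 10 members with an ERSE match did not share a direction in VQ or tVk12653 against WT or in D1 against D5. In VQ against WT 2 were higher (Canx and Pdia6) and 1 lower (Syvn1), against 6 and 5 of the 21 members with a window but no ERSE, where 17.3% of all genes were higher and 15.1% lower. In tVk12653 against WT 1 was higher (Canx) and 4 lower (Calr, Dnajc3, Syvn1 and Derl3), with a median of -0.645 log2, against 2 higher, 1 lower and a median of -0.0542 in the 21, where 12.6% of all genes were higher and 15.7% lower. In D1 against D5 1 was higher (Ero1lb) and 5 lower (Calr, Hsp90b1, Hspa5, Pdia6 and Syvn1), against 3 and 9, where 20% of all genes were higher and 21.7% lower. In V against WT none was called. All 10 differences were positive there, as were 37 of the 38 members, with medians of 0.357 in the 10 and 0.269 in the 21. For VQ against tVk12653, 3 were higher and 0 lower, against 3 and 1, where 5.97% of all genes were higher and 4.19% lower. Medians were 0.718 and 0.38. For VQ against V, 1 was higher and 2 lower, against 3 and 6, where 15.6% of all genes were higher and 12.4% lower. Medians were -0.0868 and 0.164.

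Neighbouring steps of secretion were counted from lists of genes outside the module. In VQ against WT, where 17.3% of all genes were higher and 15.1% lower, 6 of 20 other translocon and signal recognition particle genes were higher and 1 lower, 9 of 20 genes of N-glycan addition and trimming were higher and 2 lower, and 9 of 34 other folding and degradation genes were higher and 1 lower. Srprb, a subunit of the signal recognition particle receptor, was 106.9 to 118.3 CPM across WT and 193.8 to 483.3 in VQ (1.53 ± 0.27 log2, adjusted p = 0.00285). Rpn1 and Rpn2, subunits of the oligosaccharyltransferase, were higher by 1.24 ± 0.19 and 1.14 ± 0.18 (adjusted p = 0.00131 and 0.0018). Fkbp11, an ER prolyl isomerase of secretory cells, had 65.49, 50.13 and 65.39 CPM in WT mice and 268.9, 232.3, 802.2, 614.2 and 648.9 in VQ, with no overlap. It was higher by 3.26 ± 0.37 (adjusted p = 0.000391). Ppib, another prolyl isomerase, was higher by 1.17 ± 0.19 (adjusted p = 0.00205).

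Vesicle transport from the ER to the Golgi apparatus (42 genes) had 6 higher and 2 lower in VQ against WT, shares under the background of all genes. The cargo receptors Tmed10 and Tmed9 were among the 6, at 0.72 ± 0.15 and 0.84 ± 0.18 log2 (adjusted p = 0.0059 and 0.00644). In D1 against D5, 23 of these 42 genes were lower in D1 and 1 higher, with a list median of -0.453 log2, where 20% of all genes were higher and 21.7% lower with a median of 0.0527. The N-glycan genes had 10 lower and 1 higher of 21 there, and the translocon list 9 lower and 2 higher of 20.

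The transcription factor and PERK list of the unfolded protein response had 1 of 16 genes higher in VQ than in WT and 3 lower, beside 17.3% and 15.1% of all genes. Mbtps2, a protease that cuts ATF6, was higher (1.18 ± 0.25 log2, adjusted p = 0.00704). Ppp1r15a (GADD34), which reverses the translation block of this response, had 471.8, 279.4 and 269.8 CPM across WT and 63.59 to 169.3 in VQ, lower by -1.55 ± 0.40 (adjusted p = 0.0157). Xbp1 did not pass (-0.28 ± 0.29, adjusted p = 0.492), and spliced and unspliced Xbp1 are not separated by gene counts. In D1 against D5, 8 of the 16 were higher in D1 and 1 lower, beside 20% and 21.7% of all genes. Of 15 plasma cell regulators 1 was higher and 5 lower in VQ than in WT, beside the same 17.3% and 15.1%. Ikzf3 (Aiolos) fell from 458.6 to 593.3 CPM in WT to 11.84 to 146 in VQ (-2.78 ± 0.55, adjusted p = 0.00511). Prdm1 and Irf4 did not pass (adjusted p = 0.304 and 0.0649). V against WT had no called gene in any of these 6 lists.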

How the data were processed

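The authors deposited raw counts of reads for each gene symbol, not normalized, for 13 libraries of 50000 sorted cells. Per the labels, RNA came from the RNeasy Micro kit and the library kit was stranded and made for very small RNA inputs. STAR 2.6.1d and GRCm38.p6 are named in the submitters' processing notes. How reads were counted, with which annotation and strand setting, is not given in the sources used here. Exons of 13 members share bases with another gene of GENCODE M21, over 10% of them in Hsp90b1, Mzb1 and Ssr2.

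The members and lists were chosen with earlier results of these data known. All members were named by rule, and up to 2 genes per further list, those with the smallest adjusted p in VQ against WT. Xbp1, Prdm1, Irf4, Sdc1 and Ptprc could be given whatever their values. Counts were tested with edgeR 4.0.16 (R 4.3.3) quasi-likelihood fits (robust), TMM factors and filterByExpr (minimum count 10, minimum total 15), with p adjusted over all tested genes (Benjamini-Hochberg) and called under 0.05. V and WT were fitted alone, the other arms in 11 units with recipients of a VQ line summed, and D1 and D5 with all 13 libraries. Groups follow the sample titles. The scripts were tested on simulated data. Whether same-numbered libraries came from the same cage, day or batch is not stated, but WT and V libraries with the same number deviated from their group means with correlations of 0.125 to 0.190, against -0.144 to -0.038 for other numbers, so the block was used beside that comparison. p-values measure the spread between these libraries. Chi-square values per degree of freedom between libraries of the same group ran from 5.23 to 15.6, so no library was a repeat of another.

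Exon lengths are unions of GENCODE M21 exons, and promoter windows are RefSeq's on GRCm38.p6. Alternatives were relative log expression factors, TMM without the members, no filter, a filter of 30 counts, DESeq2 1.42.0, the 20 most abundant genes removed, other sets of libraries, a replicate block and each library or line left out. WT replicate 2 with D1 replicate 1 left out, pair 2 left out of the blocked fit, and lines D4 and D5 left out together, were added after seeing the data.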

Additional observations from a re-analysis of the deposited data

Results flagged for a closer look

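For 5 members D1 and D5, lines of a single VQ genotype, lay on opposite sides of all 3 WT libraries, and the difference between them passed the test (edgeR, adjusted p under 0.05). Of 12835 genes, 33% lay above and 35.9% below WT in D1, and 33.8% and 40% in D5. The test called 20% of genes higher and 21.7% lower in D1. The share of all genes on opposite sides was not counted. Pdia4, Ero1lb and Ern1 were higher in D1, by 0.96, 1.08 and 1.84 log2, with both D1 libraries above and both D5 libraries below every WT library. Calr was lower in D1 by -1.35 log2, with D1 below and D5 above WT. Pdia5 had no count in either D1 library and was at least 167-fold higher in D5. Ern1, Calr, Pdia4, Ero1lb and Pdia5 kept their direction and their call in every alternative that tested them. The lines have 2 recipients each, so these differences hold between the lines sampled. D5 also had almost no Ptprc (1.855 and 6.645 CPM, against 272.4 and 248.3 in D1), and its part in them was not tested.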

How the results depend on the processing

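No call of the reported fits changed direction. Among members not called there, line D1 without D4 and D5 reversed Calr against V (-0.74 log2, and 0.25 without D1), and Pdia5 against WT (-7.72, and 4.37 without D1) and V (-8.70, and 3.39 without D1). The Pdia5 values depend on the prior count, since D1 had none. With other scaling factors the median of all genes moved by less than 0.1 log2. The blocked V and WT fit, which pairs the replicate numbers, called 4 members higher, no low count filter 1 and DESeq2 3, against 0. In VQ against WT the 2 arms alone called 4 higher and 2 lower, against 10 and 6, and leaving out WT replicate 2 and D1 replicate 1 called 4 higher. Without line D1 12 were higher, and without D4 9 lower. Without single WT libraries the calls ranged from 4 to 7 higher and 3 to 7 lower. In VQ against V relative log expression factors called 3 higher (against 5), the 2 arms alone 2 higher and 5 lower (against 8), and both libraries left out 3 higher. Without line D1 8 were higher, and without D5 3. Without single V libraries 3 were higher and 4 to 8 lower. In tVk12653 against WT the 2 arms alone called 13 lower against 7, and both libraries left out 1 higher against 3. Without single libraries 0 to 3 were higher and 2 to 6 lower. In VQ against tVk12653 (8 higher, 1 lower) relative log expression factors and no filter called 5 higher, no filter 0 lower, DESeq2 14 and 4, the 2 arms alone 0 and 0, and all libraries with a mean per arm 4 lower. Without D1 12 were higher. For D4 and D5 left out together, which left a single VQ unit, only medians and directions are given. Without D4 3 were lower and without D5 0, and without a tVk12653 library 1 to 2 were higher and 0 lower. In D1 against D5 removal of the 20 most abundant genes called 2 higher, where Pdia4 and Sel1l were among the genes removed, and D1 and D5 alone called 10, against 4. Except where a removed gene or library shows it, the cause was not tested.
No value is given for the 20 most abundant genes removed where a member was itself removed, which left 31 members tested. D4 has 1 library and tVk12653 1 line. Levels near 3 counts, as for Mzb1 in D4 and Pdia5 in D1 and tVk12653, are limited by depth. The planned description of protein sequences was not run.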
